A study of Mus musculus with 2 samples.

Results

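Conventional dendritic cells of mouse bone marrow were described in 2 single-cell RNA libraries, 1 from mice on a high-fat diet (HFD) and 1 from mice on normal chow (ND). Dendritic cells take up material, cut it into peptides and present these on class II molecules to CD4 T cells. The conventional (cDC) lineage is usually divided in mice into cDC1, which carry the receptors Clec9a and Xcr1, depend on the transcription factors Irf8 and Batf3 and cross-present antigen to CD8 T cells, and cDC2, which carry Sirpa, use Irf4 and include cells with the lectin Cd209a. Both arise in the marrow from progenitors that carry the growth factor receptor Flt3, and their immediate precursors leave the marrow before they are mature.

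The mice were wild type males of the strain given in the labels as C57B/6, described as young at the start of the diets. The HFD had 60% fat, and each diet lasted 16 weeks. The labels do not say how many animals stand behind a library, whether they were pooled, or whether the marrow was sorted. Diet and library cannot be told apart, and with 1 library per diet no difference between the diets was tested.

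A cell was a member when it held at least 5 UMIs (counted molecules) of the class II genes H2-Aa, H2-Ab1 and H2-Eb1 together and at least 1 UMI of Cd209a, Clec9a, Xcr1 or Flt3, called entry genes below. It also had to hold no Siglech (a plasmacytoid dendritic cell receptor), under 2 UMIs of the B cell receptor genes Cd79a and Cd79b and under 3 UMIs of the macrophage genes C1qa, C1qb and C1qc. The rule was met by 527 of 29952 cells that passed the quality filter, of 34099 cells in all. There were 273 members in the HFD library and 254 in the ND library. They made up 1.74% of the kept HFD cells (95% interval 1.55 to 1.96%) and 1.78% of the kept ND cells (1.57 to 2.01%), and the ratio of the shares, HFD over ND, was 0.98 (0.82 to 1.17). Members were thus chosen by their UMIs of these 13 genes, so the levels of the rule's genes are a description, and so is every contrast of members with other cells. All intervals cover counting error only: exact Clopper-Pearson for shares, exact conditional binomial for ratios.

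The libraries held 17282 HFD cells with 117773643 RNA UMIs and 16817 ND cells with 117999042. Members held 2504221 UMIs in the HFD library and 2126908 in the ND library, with medians of 7071 and 7132.5 UMIs per cell. 329 cell indices occurred in both libraries, 6 HFD and 7 ND members carried such an index, and no index was a member in both. Some members carried genes of other lineages. Markers of basophils and mast cells, erythroid cells, megakaryocytes, neutrophils, eosinophils, plasma cells and progenitors together held over 1% of the UMIs in 15 of 273 HFD members and 12 of 254 ND members, with maxima of 16.7% and 24.6%, against medians of 0.059% and 0.045%.

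The class II genes that chose the cells ranged from 5 to 481 UMIs per cell in HFD members, with a median of 54, and from 5 to 490 in ND members, with a median of 58.5. Genes the rule did not name also marked the members. Cd74, the invariant chain that guides class II molecules, stood at 6976 CPM (UMIs of a gene scaled to 1e6 UMIs of the same cells) in HFD members, against 362 CPM in all other kept HFD cells, and at 6831 CPM in ND members, against 319 CPM in other ND cells. Ciita, the coactivator that switches class II genes on, stood at 231 CPM in HFD members and 7.90 CPM in other HFD cells, and at 244 CPM in ND members and 7.46 CPM in other ND cells. The peptide loader H2-DMb1 stood at 245 CPM in HFD members, against 22.1 CPM in other HFD cells, and at 309 CPM in ND members, against 23.6 CPM in other ND cells. The lysosomal hydrolase Naaa, the interferon-inducible Ifi205 and the protease inhibitor Cst3 were among the 20 genes with the highest ratio of members to other cells as well. Ifi205 stood at 121 CPM in HFD members and 1.73 CPM in other HFD cells, and at 162 CPM in ND members and 1.37 CPM in other ND cells. In all of these the members were the higher group in each library.

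Class II promoters share a short block of elements, the X box and, further on, a CCAAT sequence read on the other strand. The windows of H2-Eb1, which is a rule gene, and of H2-DMb1, which is not, are shown as windows that hold both. They run from 250 bases before the RefSeq gene start to 50 after it, in build GRCm38.p6, on the plus strand, at chr17:34305617-34305916 for H2-Eb1 and chr17:34152941-34153240 for H2-DMb1. Capitals mark CCAAT (on either strand) and the letters AACNGATG, taken from the X box.
H2-Eb1: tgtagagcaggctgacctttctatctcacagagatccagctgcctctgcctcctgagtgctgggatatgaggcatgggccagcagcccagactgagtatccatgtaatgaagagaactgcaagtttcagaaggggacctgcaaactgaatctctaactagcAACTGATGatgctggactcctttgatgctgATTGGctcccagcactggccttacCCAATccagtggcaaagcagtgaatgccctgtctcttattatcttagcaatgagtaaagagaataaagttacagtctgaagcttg
H2-DMb1: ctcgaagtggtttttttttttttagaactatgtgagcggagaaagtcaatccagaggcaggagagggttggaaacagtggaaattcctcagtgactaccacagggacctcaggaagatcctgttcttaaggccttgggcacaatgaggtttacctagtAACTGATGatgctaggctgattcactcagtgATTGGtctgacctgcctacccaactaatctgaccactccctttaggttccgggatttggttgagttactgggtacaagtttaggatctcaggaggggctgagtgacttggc
The X box letters, chosen after these windows were seen and searched on both strands, began 89 bases before the H2-Eb1 start and 92 bases before the H2-DMb1 start. They occurred in 762 of 32851 RefSeq promoter windows of the same length (2.32%). Among the 14 class II presentation genes outside the rule that had a window, they occurred in 4 of 18 windows. These were windows of Ctss, H2-DMb1, H2-DMb2 and H2-Eb2. Of the 10 rule genes that had a window, H2-Eb1 alone held the X box letters, and the H2-Aa window held CCAAT without them. CCAAT occurred in 37.4% of all windows. A match describes letters only.

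By their entry genes the members fell into 4 sets. Cells with Clec9a or Xcr1 and no Cd209a numbered 65 of 273 in the HFD library (23.8%, 18.9 to 29.3%) and 60 of 254 in the ND library (23.6%, 18.5 to 29.3%). Cells with Cd209a and neither Clec9a nor Xcr1 numbered 90 in the HFD library (33.0%) and 82 in the ND library (32.3%). Cells with both kinds of receptor numbered 41 in the HFD library (15.02%) and 42 in the ND library (16.5%). Cells that entered by Flt3 alone numbered 77 in the HFD library (28.2%) and 70 in the ND library (27.6%). The make-up of the members was close to the same in the libraries, and the intervals of each set overlapped.

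**Figure D1:**
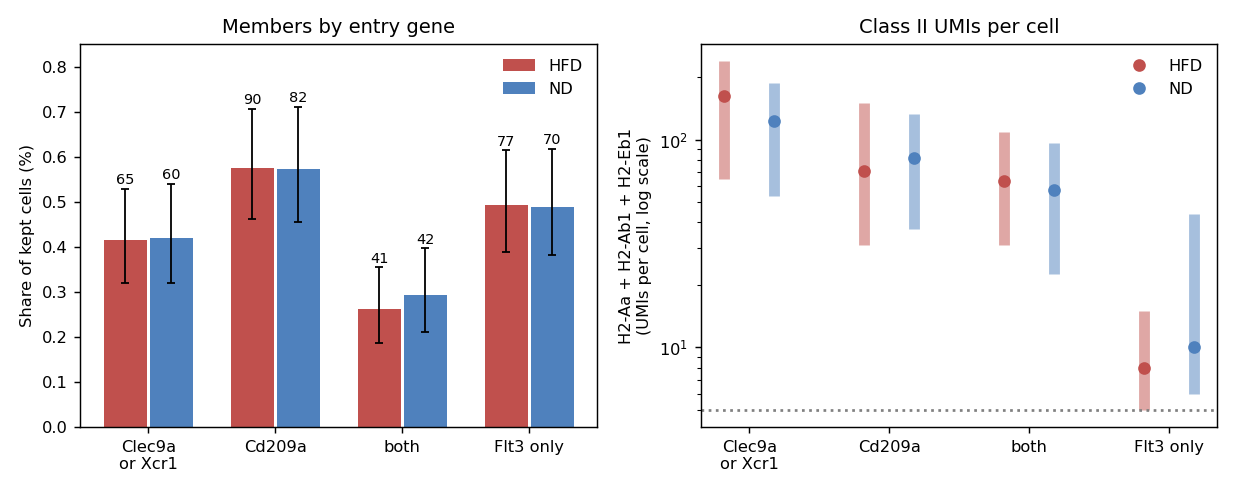
Left, share of kept cells (%) in each set of members in the HFD and ND libraries, with exact 95% intervals and the number of cells above each bar. Right, class II UMIs per cell on a log scale, with points for medians, bars for the middle 50% of cells and a dotted line at the 5 UMIs the rule asks for; the Flt3-only cells sit lowest, at medians of 8 (HFD) and 10 (ND).

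Single UMIs decided many of these assignments. Of the 102 HFD members and 98 ND members with Clec9a, 49 and 47 held 1 UMI of it. Outside the members, Clec9a was found in 2.67% of other HFD cells and 3.22% of other ND cells, and Cd209a in 2.06% and 3.21%, at median depths of 4101 UMIs per HFD cell and 4495 per ND cell. Xcr1 was rarer outside the members, in 0.065% of other HFD cells and 0.078% of other ND cells. Flt3, which early progenitors also carry, was found in 11.03% of other HFD cells and 12.8% of other ND cells.

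The Flt3-only cells went against the dendritic cell label. Their median class II sum was 8 UMIs in the HFD library and 10 in the ND library, and 58.4% of them in the HFD library and 45.7% in the ND library lay under 10 UMIs. Zbtb46, a transcription factor used as a marker of the cDC lineage, stood at 14.9 CPM in HFD and 8.94 CPM in ND Flt3-only cells. In the Cd209a cells it stood at 44.3 CPM in the HFD library and 23.8 CPM in the ND library. Cd34, a surface protein of blood-forming progenitors, stood at 645 CPM in HFD Flt3-only cells, against 77.6 CPM in HFD Cd209a cells, and at 734 CPM in ND Flt3-only cells, against 31.8 CPM in ND Cd209a cells. Hlf, a transcription factor of stem and early progenitor cells, stood at 475 CPM against 36.02 CPM in the HFD library and at 776 CPM against 1.99 CPM in the ND library in the same order. Dntt, the enzyme that adds bases to rearranging antigen receptor genes, stood at 489 CPM in HFD and 322 CPM in ND Flt3-only cells and had no UMI in the Cd209a cells of either library.

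Between the Flt3-only and Cd209a cells, 2152 genes held at least 100 UMIs in each library, and 161 of them (7.48%) were past 1.5-fold higher in both libraries and 260 (12.1%) past 1.5-fold lower. The 8 highest were Dntt, Adgrl4, Nrgn, Hoxa9, Hlf, Sox4, Angpt1 and Cd34. The stem and progenitor factor Hoxa9 stood at 177 CPM against 11.1 CPM in the HFD library and at 261 CPM against 1.99 CPM in the ND library. Sox4, a factor of immature lymphoid and myeloid cells, stood at 551 CPM against 45.7 CPM in the HFD library and at 599 CPM against 17.9 CPM in the ND library. The lowest outside the rule were Clec10a, Hpgd, Cd74, Slamf7, Fn1 and Emilin2. Of 24 cDC2 genes, 12 reached the minimum, 9 of them were lower and none higher in the Flt3-only cells. Of 7 progenitor markers, 6 reached it, and 3 of them were higher in both libraries and none lower, with medians of -0.047 (HFD) and 4.24 (ND) on the log2 scale. Cd34, Kit and Adgrg1 were the 3, while the myeloid granule genes Mpo, Ctsg and Prtn3 were higher in Flt3-only cells of the ND library and lower in those of the HFD library. These cells are therefore named here by their entry gene. Of 68 named genes past the fold between the diets over all members, 67 kept their direction without entry by Flt3 and 58 were still past the fold, and the cholesterol list is also given without that entry.

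The cut on class II UMIs fell within these cells. Members with exactly 5 class II UMIs numbered 27 in the HFD library and 21 in the ND library, with Cd34 at 763 and 843 CPM and Zbtb46 at 3.98 and 9.32 CPM. Cells just outside, with 4 class II UMIs, numbered 39 in the HFD library and 16 in the ND library, with Cd34 at 623 and 843 CPM and Zbtb46 at 5.97 and 0 CPM.

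The Clec9a or Xcr1 cells and the Cd209a cells carried the genes known for cDC1 (the first set) and cDC2 (the second set), although these lists played no part in the rule. Irf8, the factor that cDC1 depend on, stood at 2693 CPM in Clec9a or Xcr1 cells against 321 CPM in Cd209a cells of the HFD library, a log2 ratio of 3.07 (2.87 to 3.27). In the ND library Irf8 stood at 2626 CPM against 461 CPM, a log2 ratio of 2.51 (2.31 to 2.71). Wdfy4, a protein needed for cross-presentation, stood at 672 CPM against 116 CPM in the HFD library and at 573 CPM against 73.5 CPM in the ND library. Id2, an inhibitor of E proteins, stood at 1580 CPM against 99.8 CPM in the HFD library and at 1476 CPM against 83.4 CPM in the ND library. In each of these the Clec9a or Xcr1 cells were the higher set in both libraries.

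The opposite order held for Clec10a, a lectin of cDC2, which stood at 7.87 CPM in Clec9a or Xcr1 cells against 211 CPM in Cd209a cells of the HFD library and at 7.66 CPM against 389 CPM in the ND library. The chemokine receptor Cx3cr1 stood at 45.6 CPM against 373 CPM in the HFD library and at 68.9 CPM against 598 CPM in the ND library. Zeb2, a repressor linked to cDC2 and plasmacytoid fates, stood at 25.2 CPM against 269 CPM in the HFD library and at 35.2 CPM against 371 CPM in the ND library. The integrin Itgam (CD11b) stood at 50.4 CPM against 238 CPM in the HFD library and at 62.8 CPM against 338 CPM in the ND library. Csf1r, the receptor for the growth factor of monocytes and macrophages, stood at 63.0 CPM against 267 CPM and at 38.3 CPM against 479 CPM in the HFD and ND libraries. Csf1r and Cx3cr1 are on the monocyte marker lists too, so they do not set cDC2 apart from monocyte-related cells.

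Of 2004 genes with at least 100 UMIs over both sets in each library, 87 (4.34%) were past 1.5-fold higher and 111 (5.54%) past 1.5-fold lower in the Clec9a or Xcr1 cells of both libraries. Of 22 cDC1 genes, 9 reached that minimum and all 9 were higher, with medians of 3.07 (HFD) and 2.51 (ND) on the log2 scale, against -0.08 and 0.04 over all genes tested. They were Irf8, Wdfy4, Naaa, Ppt1, Cd24a, Rab7b, Sept3, Ifi205 and Rab32. Of 24 cDC2 genes, 12 reached it and 10 were lower, with medians of -2.13 (HFD) and -2.42 (ND). Clec12a and Notch2 were not past the fold. Classical monocyte markers ran the same way as the cDC2 genes. Of 10 of them, 6 reached the minimum and 5 were lower, with medians of -1.67 (HFD) and -2.54 (ND). The contrast therefore does not separate cDC2 from monocyte-related cells. The minimum favours genes that are high in one of the sets, so the genes under it are given too where the label rests on them.

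Batf3 fell under the minimum. It stood at 86.6 CPM in Clec9a or Xcr1 cells against 40.2 CPM in Cd209a cells of the HFD library, and at 67.4 CPM against 37.7 CPM in the ND library, while plasmacytoid, monocyte and B comparators stood at 0.181 to 1.79 CPM. Irf4 stood at 7.87 CPM against 81.7 CPM in the HFD library and at 3.06 CPM against 73.5 CPM in the ND library. Sirpa, the inhibitory receptor used to sort cDC2, stood at 9.44 CPM against 118 CPM in the HFD library and at 23.0 CPM against 163 CPM in the ND library. Cadm1, an adhesion molecule used to identify cDC1 across species, stood at 156 CPM against 9.70 CPM and at 73.5 CPM against 1.99 CPM, but was detected in 21.5% of HFD and 15% of ND Clec9a or Xcr1 cells.

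**Figure D2:**
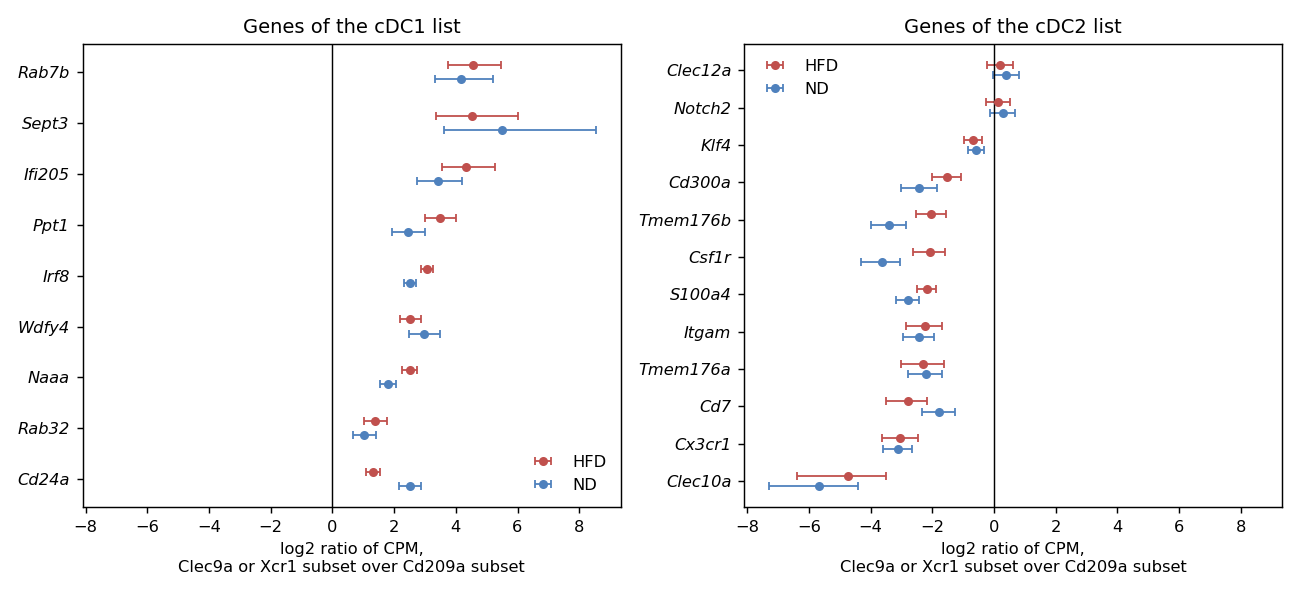
Log2 ratio of CPM, Clec9a or Xcr1 cells over Cd209a cells, in the HFD (red) and ND (blue) libraries for genes of the cDC1 list (left) and the cDC2 list (right) with at least 100 UMIs, with 95% counting intervals. All 9 cDC1 genes lie right of 0 and 10 of 12 cDC2 genes left of it in both libraries.

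Some of the highest ratios came from very few cells. The neutrophil granule genes Camp, Ngp and Lcn2 ranked among the 8 highest, at 241, 883 and 297 CPM in HFD Clec9a or Xcr1 cells and 472, 1017 and 322 CPM in ND ones. They were found in 4.62 to 15.4% of these cells, and 1 cell held 97.7 to 98.4% of the HFD UMIs and 51.6 to 71.4% of the ND UMIs of each. Of the 10 neutrophil markers, 5 of 6 tested were past the fold with all cells and none without the members past 1% other-lineage UMIs. Without those members, 98 genes were higher and 126 lower, and 9 cDC1 genes were still higher and 9 cDC2 genes lower.

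The cells with both kinds of receptor lay between these sets for several of the listed genes. Irf8 stood at 769 CPM in HFD and 1276 CPM in ND cells with both receptors, and Sirpa at 67.8 and 93.5 CPM. Id2 stood at 295 CPM (HFD) and 461 CPM (ND), and Irf4 at 58.9 and 70.1 CPM, near its level in Cd209a cells. Against the Cd209a cells, 26 of 1389 genes (1.87%) were past 1.5-fold higher and 14 (1.01%) lower in both libraries. Id2 and Irf8 led the higher genes, and Apoe, Clec4a3 and S100a8 the lower ones. Klf4, a factor that some cDC2 need, stood at 754 CPM in HFD and 648 CPM in ND cells with both receptors.

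**Figure D3:**
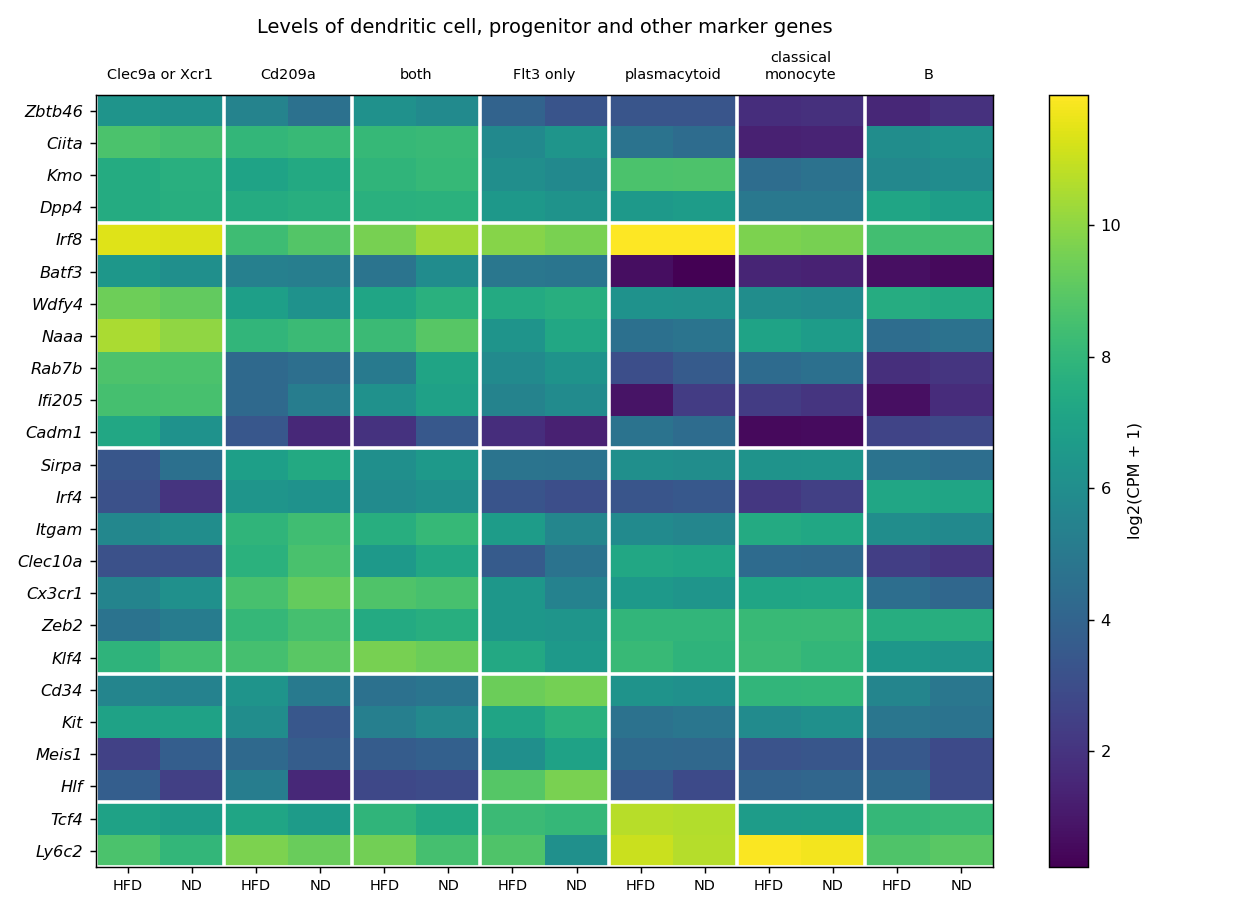
Levels as log2(CPM + 1) of marker genes (rows) in the 4 sets of members and in plasmacytoid, classical monocyte and B comparators (columns, HFD left of ND in each). Irf8, Naaa and Rab7b are brightest among the members in the Clec9a or Xcr1 cells, Clec10a and Cx3cr1 in the Cd209a cells and those with both receptors, and Cd34 and Hlf in the Flt3-only cells.

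Genes of related cells were present at other levels. Zbtb46 stood at 47.1 CPM in HFD and 38.1 CPM in ND members, at 8.998 and 9.07 CPM in plasmacytoid comparators and at 2.43 and 2.61 CPM in classical monocyte comparators. Itgax (CD11c) stood at 123 CPM in HFD and 76.2 CPM in ND members, below the 243 and 239 CPM of plasmacytoid comparators. The plasmacytoid factor Tcf4 stood at 202 CPM in HFD and 166 CPM in ND members and at 1689 and 1601 CPM in plasmacytoid comparators. Ccr2, the receptor through which monocytes leave the marrow, was found in 80.2% of HFD and 81.1% of ND members, at median depths of 7071 and 7132.5 UMIs, and in 4.29% and 5.51% of B comparators, at median depths of 2549.5 and 2610.5. Classical monocyte markers summed to 3622 CPM in HFD and 5982 CPM in ND Cd209a cells, against 3333 and 2668 CPM in all other kept cells. In classical monocyte comparators they summed to 7727 CPM (HFD) and 7092 CPM (ND). Those comparators were chosen by Ly6c2 and Ccr2, which are on that list. The part of monocyte-related cells in the Cd209a set was not tested. Ccr7 and Fscn1, genes of mature migratory dendritic cells, had no UMI in Cd209a cells or in cells with both receptors and were found in at most 9.09% of any set.

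Antibody tags gave a protein measure that the rule did not use. CD117, the Kit receptor of progenitors, had medians of 11 tag molecules per Flt3-only cell in the HFD library and 35.5 in the ND library. In Clec9a or Xcr1 cells the medians were 9 (HFD) and 17 (ND), and in Cd209a cells 0 in both libraries. Kit RNA showed the same high sets, at 136 CPM in HFD and 213 CPM in ND Flt3-only cells, 126 and 127 CPM in Clec9a or Xcr1 cells, and 62.3 and 9.93 CPM in Cd209a cells. The tag for the Fc receptors CD16 and CD32 ran the other way, with medians of 23 (HFD) and 37 (ND) in Cd209a cells, 14 and 24 in Clec9a or Xcr1 cells, and 6 and 9.5 in Flt3-only cells. Tag molecules numbered 1308386 in the HFD library and 2073137 in the ND library, so levels of tags were not compared between the diets.

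**Figure D4:**
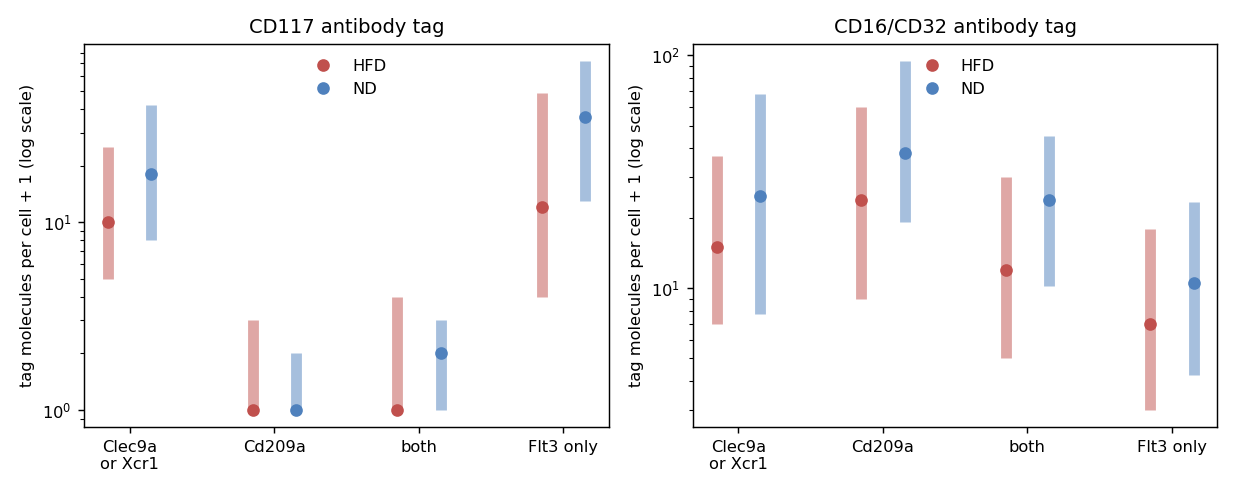
Molecules of the CD117 (left) and CD16/CD32 (right) antibody tags per cell plus 1, on a log scale, in the 4 sets of members in the HFD and ND libraries; points are medians and bars the middle 50% of cells. CD117 is high in Flt3-only and in Clec9a or Xcr1 cells, and CD16/CD32 is highest in Cd209a cells.

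Cell cycle genes were carried by many members. At least 3 UMIs of 20 G2 and M phase genes were found in 52.0% of HFD members (45.9 to 58.1%) and 46.5% of ND members (40.2 to 52.8%), and in 33.6% and 31.7% after each cell was thinned to 2000 UMIs, which left out 2 HFD and 2 ND members. In Clec9a or Xcr1 cells the thinned share was 32.8% in the HFD library and 51.7% in the ND library, and the unthinned share was 50.8% (38.1 to 63.4%) and 68.3% (55.0 to 79.7%). In Flt3-only cells the thinned share was 42.9% in the HFD library and 29.0% in the ND library, and the unthinned share was 63.6% (51.9 to 74.3%) and 54.3% (41.9 to 66.3%). In Cd209a cells the thinned share was 23.6% in the HFD library and 20.99% in the ND library, and in cells with both receptors 36.6% and 30.95%. The unthinned intervals of the libraries overlapped in each set. The S phase list was found in 65.2% of HFD and 62.2% of ND members, or 38.0% and 31.0% after thinning.

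Between the diets, most genes of cholesterol synthesis that could be compared were lower in the HFD members. Over all members, 6314 genes held at least 100 UMIs, and 156 (2.47%) were past 1.5-fold higher and 95 (1.5%) past 1.5-fold lower in the HFD library. The median log2 ratio, HFD over ND, was 0.02. Of 24 genes of cholesterol synthesis, 13 reached the minimum, 9 were lower in the HFD members and none higher, and none of the 13 ratios was above 0. Their median was -0.66. Insig1, which holds back sterol sensing and is itself induced when sterols are low, stood at 28.4 CPM in HFD and 64.4 CPM in ND members, a log2 ratio of -1.18 (-1.62 to -0.76). Hmgcs1, an early enzyme of the pathway, stood at 41.5 CPM in HFD and 73.8 CPM in ND members (-0.83, -1.20 to -0.46). Sqle, the squalene epoxidase, stood at 19.6 CPM in HFD and 38.1 CPM in ND members (-0.96, -1.5 to -0.43). Idi1, Cyp51 and Sc5d were also past the fold. By set, the log2 ratio of Hmgcs1 was -1.74 (Flt3-only), -0.86 (both receptors), -0.38 (Cd209a) and -0.20 (Clec9a or Xcr1). In the same order, Sqle stood at -1.89, -0.86, -0.20 and -0.22, and Insig1 at -1.01, -0.96, -1.58 and -1.55. In Cd209a cells and in Clec9a or Xcr1 cells, the intervals of Hmgcs1 and Sqle held 0. The UMIs were spread over cells: Insig1 was found in 57 HFD and 85 ND members, and no cell held over 6.35% of the UMIs of Insig1, Hmgcs1, Sqle, Idi1, Cyp51 or Sc5d in its library.

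Summed over the list, cholesterol genes stood at 766 CPM in HFD members and 1150 CPM in ND members, a log2 ratio of -0.59 (-0.67 to -0.50). The sum was lower by set in Flt3-only cells (748 CPM in HFD, 1336 CPM in ND; -0.84, -0.99 to -0.69) and in Cd209a cells (766 CPM in HFD, 1188 CPM in ND; -0.63, -0.80 to -0.46). In Clec9a or Xcr1 cells it stood at 811 CPM in the HFD library and 930 CPM in the ND library (-0.20, -0.37 to -0.03). It was -0.22 in plasmacytoid comparators, -0.24 in classical monocyte comparators, -0.12 in B comparators and -0.25 in all other kept cells, none of these sums past 1.5-fold. Sqle alone was past 1.5-fold lower in classical monocyte comparators (-0.73) and all other kept cells (-0.70). It stood at -0.50 in plasmacytoid and -0.44 in B comparators. In classical monocyte comparators and all other kept cells, Insig1 stood at -0.42 and -0.43 and Hmgcs1 at -0.21 and -0.17. Among members with entry by Flt3 left out, 4 of 11 genes tested were lower and the median was -0.47. With the Clec9a or Xcr1 and the Cd209a cells weighted alike, and the other sets left out, the median was -0.36. In both settings it lay within 1.5-fold.

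**Figure D5:**
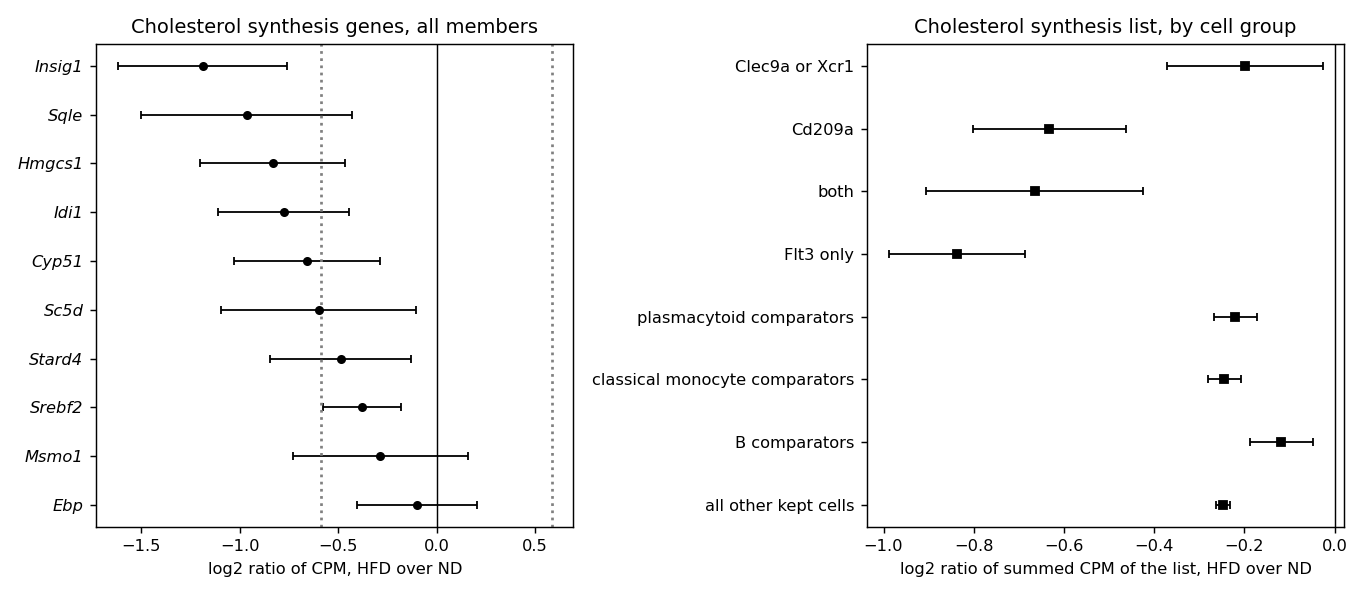
Left, log2 ratio of CPM, HFD over ND, over all members for 10 of the 13 cholesterol genes with at least 100 UMIs, with 95% counting intervals and dotted lines at 1.5-fold. Right, the ratio of the summed list by cell group; the Flt3-only cells are lowest at -0.84 and the Clec9a or Xcr1 cells, at -0.20, lie near the comparators.

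Sterol sensing acts through Srebf2, which binds sterol regulatory elements beside CCAAT sequences in these promoters. The windows of Insig1 and Hmgcs1 are shown because Insig1 had the lowest ratio of the 13 genes tested and Hmgcs1 alone in the list held the element. They lie in GRCm38.p6 on the plus strand, at chr5:28071162-28071461 and chr13:119690101-119690400, and capitals mark CCAAT on either strand and the element TCACNCCAC.
Insig1: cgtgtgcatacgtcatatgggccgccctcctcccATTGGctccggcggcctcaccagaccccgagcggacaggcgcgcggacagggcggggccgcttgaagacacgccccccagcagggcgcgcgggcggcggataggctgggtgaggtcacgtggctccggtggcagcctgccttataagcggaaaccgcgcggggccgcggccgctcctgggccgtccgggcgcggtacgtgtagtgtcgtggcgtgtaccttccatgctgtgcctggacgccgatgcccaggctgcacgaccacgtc
Hmgcs1: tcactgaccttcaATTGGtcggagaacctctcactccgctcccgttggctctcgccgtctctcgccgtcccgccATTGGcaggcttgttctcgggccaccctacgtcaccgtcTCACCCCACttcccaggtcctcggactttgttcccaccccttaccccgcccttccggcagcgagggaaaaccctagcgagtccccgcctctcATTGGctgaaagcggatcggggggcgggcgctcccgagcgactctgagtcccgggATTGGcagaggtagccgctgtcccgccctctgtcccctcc
The element, searched on both strands, began 137 bases before the Hmgcs1 start and occurred in 1.24% of all windows (408). It was present in 1 of the 19 windows of the 16 list genes that had a window. CCAAT was present in 15 of the 19, against 37.4% of all windows. Elements of other spellings or outside the window were not searched.

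Hspa1a and Hspa1b, near-identical genes of the inducible chaperone Hsp70, were the highest genes with UMIs in many cells. Because reads can be assigned to either, they were summed. They held 1657 UMIs in HFD members (662 CPM) and 205 in ND members (96.4 CPM), a log2 ratio of 2.78 (2.57 to 2.996). The UMIs were found in 126 HFD members (46.2%) and 40 ND members (15.7%). The same order held in every other group of cells: the log2 ratio was 2.64 in Clec9a or Xcr1 cells, 2.31 in Cd209a cells, 3.67 in cells with both receptors and 3.73 in all other kept cells, where the pair stood at 246 CPM in the HFD library and 18.6 CPM in the ND library. The ratio in Flt3-only cells rested on 3 ND UMIs. Over all members, no other of 14 heat shock and chaperone genes tested was past the fold. Hsp90aa1 was nearest, at 1093 CPM in HFD and 757 CPM in ND members (0.53, 0.44 to 0.62). In Cd209a cells 6 of 10 were higher, where 12.8% of 2233 genes were, the Hsp70 pair among them, and the summed list had a log2 ratio of 0.83 (0.75 to 0.91). Hsp90aa1 stood at 1200 CPM in HFD and 407 CPM in ND Cd209a cells (1.56, 1.34 to 1.79). In Clec9a or Xcr1 cells 3 of 12 were higher, the Hsp70 pair and its partner Dnajb1, where 4.32% of 2292 genes were, and the sum was 0.31 (0.24 to 0.38).

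The Hsp70 windows are shown because both genes had the same order and carry the same heat shock element, GAANNTTC, in capitals. They lie in GRCm38.p6 on the minus strand, at chr17:34972107-34972406 for Hspa1a and chr17:34959189-34959488 for Hspa1b.
Hspa1a: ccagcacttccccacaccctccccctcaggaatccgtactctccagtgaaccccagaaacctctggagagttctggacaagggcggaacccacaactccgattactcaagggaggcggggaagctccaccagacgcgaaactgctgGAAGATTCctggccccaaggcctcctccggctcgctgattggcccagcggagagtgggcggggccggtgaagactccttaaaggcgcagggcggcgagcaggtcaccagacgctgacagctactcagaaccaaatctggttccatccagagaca
Hspa1b: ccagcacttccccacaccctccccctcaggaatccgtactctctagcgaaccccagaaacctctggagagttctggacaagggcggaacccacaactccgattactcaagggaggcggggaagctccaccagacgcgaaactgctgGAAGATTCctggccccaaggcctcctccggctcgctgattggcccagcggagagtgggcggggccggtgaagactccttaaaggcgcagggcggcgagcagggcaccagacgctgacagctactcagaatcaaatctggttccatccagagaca
The element began 104 bases before the start in both. It occurred in 7.86% of all windows, on either strand. Among the 14 heat shock and chaperone genes that had a window, it occurred in 11 of 20 windows, from 10 genes.

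Interferon-responsive genes leaned towards the HFD library with few past the fold. Of 22 type I interferon genes tested, 3 were higher, none lower and 21 above 0, with a median of 0.27. Over all 6314 genes tested, 2.47% were higher, 1.5% lower and 3376 above 0. Ifi27l2a stood at 143 CPM in HFD and 94.97 CPM in ND members (0.59, 0.33 to 0.84), and Xaf1 at 50.3 CPM in HFD and 32.4 CPM in ND members (0.63, 0.20 to 1.08). Each was near the fold: Ifi27l2a stayed past it in 6 of 10 alternatives and stood at -0.043 with the Clec9a or Xcr1 and Cd209a cells weighted alike, and Xaf1 stayed past it in 5 of 10, with a lowest ratio of 0.12 under the same weighting. The third, Rsad2, had 60.2% of its HFD UMIs in 1 cell. The summed list had a log2 ratio of 0.27 in members and 0.34 in all other kept cells. By set it was 0.80 (0.65 to 0.95) in cells with both receptors, 0.47 (0.36 to 0.58) in Clec9a or Xcr1 cells, 0.26 in Flt3-only cells and -0.20 (-0.30 to -0.11) in Cd209a cells, so the sets did not share a direction.

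Of 9 interferon gamma genes tested, 4 were higher in HFD members and none lower, with a median of 0.39, where 2.47% of all genes were higher. Cxcl9, a chemokine that draws activated T cells, held 367 UMIs in 11 HFD members and 10 UMIs in 2 ND members, and 1 HFD cell held 34.9% of them. Igtp had 43.6% of its HFD UMIs in 1 cell. The GTPase Irgm1 stood at 63.1 CPM in HFD and 39.0 CPM in ND members (0.69, 0.30 to 1.09) and Tgtp2 at 30.0 CPM in HFD and 15.5 CPM in ND members (0.95, 0.34 to 1.59), with UMIs in 89 and 44 HFD cells and in 67 and 23 ND cells. The summed list reached 1.5 (1.32 to 1.68) in Clec9a or Xcr1 cells, at 1478 CPM in the HFD library and 523 CPM in the ND library, against 0.16 in all other kept cells. In that set 5 HFD cells held 60.3% of the list's UMIs. The sum was 0.31 (0.11 to 0.52) in Cd209a cells, 0.22 (-0.09 to 0.55) in cells with both receptors and -0.21 (-0.39 to -0.03) in Flt3-only cells.

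Over all members, identity genes of the lineage were mostly within the fold between the diets. Of 12 shared cDC genes 2 were higher, Itgax at 123 CPM in HFD and 76.2 CPM in ND members (0.70, 0.42 to 0.98), and the DNA-degrading enzyme Dnase1l3, with 33.6% of its HFD UMIs in 1 cell. Of 15 cDC1 genes tested 2 were higher, Cadm1 (43.5 CPM in HFD, 24.9 CPM in ND; 0.80) and Tlr11 (33.1 CPM in HFD, 14.6 CPM in ND; 1.19), a sensor of microbial profilin. Over all 6314 genes tested, 2.47% were higher. Of 17 cDC2 genes tested 3 were lower, Clec10a (78.7 CPM in HFD, 125 CPM in ND; -0.66), Mgl2 (22.4 CPM in HFD, 37.1 CPM in ND; -0.73) and Clec4a2 (45.1 CPM in HFD, 68.2 CPM in ND; -0.60), all C-type lectins, where 1.5% of all genes were lower. Clec10a stayed past the fold in 6 of 10 alternatives and Mgl2 in 7 of 10, and with members thinned to 2000 UMIs they stood at -0.23 and -0.17. Thinned, Cadm1 stood at 0.16. None of 20 regulators of dendritic cell development, 14 class II presentation genes outside the rule or 18 class I presentation genes was past the fold, with medians of -0.07, -0.11 and 0.02. The class II list differed in sign by set, at 0.30 (0.27 to 0.33) in Clec9a or Xcr1 cells and -0.32 (-0.36 to -0.29) in Cd209a cells. The summed cDC2 list did so too, at -0.44 (-0.51 to -0.36) in Cd209a cells and 0.43 (0.29 to 0.56) in Flt3-only cells. In Cd209a cells 7 of 15 cDC2 genes tested were lower, where 7.08% of 2233 genes were. In Flt3-only cells 5 of 10 were higher, where 4.56% of 2788 were. The summed cDC1 list stood at -0.73 (-0.88 to -0.58) in cells with both receptors and between -0.02 and 0.19 in the other sets. Ccr2 stood at 1238 CPM in HFD and 1699 CPM in ND members (-0.46, -0.53 to -0.39).

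Many of the extremes over the genes ranked were genes of other lineages. Genes far higher in a comparator group or in all other kept cells were not ranked, by the limit given below. The 12 highest also held Cxcl9 and the Hsp70 pair, and the 12 lowest Ccl3, Ccl4, Mrc1, Klra2, Insig1 and Hist2h2be. The highest ratio was that of the platelet chemokine Ppbp, with 1253 UMIs in HFD members, 99.9% of them in 1 cell, and 0 in ND members. Gp5, Pf4, Thbs1, Alox12 and Gng11 had 92.6 to 100% of their HFD UMIs in 1 cell too. The lowest ratios were those of the basophil and mast cell genes Prss34 (63 UMIs in HFD members, 1489 in ND members), Ms4a2 and Mcpt8, with 34.6 to 46.2% of the ND UMIs in 1 cell. All 3 changed sign without Scrublet doublets, to log2 ratios of 0.48 for Prss34, 0.97 for Ms4a2 and 0.66 for Mcpt8. Megakaryocyte markers summed to 742 CPM in HFD and 26.8 CPM in ND members, and basophil and mast cell markers to 89.0 and 1275 CPM. Erythroid markers summed to 1367 CPM in HFD and 265 CPM in ND members and neutrophil markers to 4853 and 2586 CPM. Without the members past 1% other-lineage UMIs, 96 genes were higher in place of 156.

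Among ranked genes with UMIs in at least 20 cells of the higher library and at most 10% of them in 1 cell, 82 were higher and 75 lower in HFD members. The number of all tested genes within these limits was not counted, so no share is given. After the Hsp70 genes, the highest were Cad, the enzyme that starts pyrimidine synthesis (31.5 CPM in HFD, 12.7 CPM in ND; 1.31, 0.67 to 2.001), Tmem160, Tal1, Clptm1 and Bhlhe40, a circadian and immune repressor (31.9 CPM in HFD, 14.6 CPM in ND; 1.13, 0.52 to 1.78). With members thinned to 2000 UMIs, Cad and Tmem160 each stood at 0.26 and were no longer past the fold. Pgls, an enzyme of the pentose phosphate pathway, stood at 73.5 CPM in HFD and 37.1 CPM in ND members (0.98, 0.60 to 1.38) and was found in 112 HFD and 55 ND cells. The lowest was Mrc1, the mannose receptor (13.6 CPM in HFD, 43.3 CPM in ND; -1.67, -2.28 to -1.09), followed by Klra2, Insig1 and the histone gene Hist2h2be. H1f0, a linker histone of resting cells, stood at 118 CPM in HFD and 250 CPM in ND members (-1.08, -1.29 to -0.87), with UMIs in 122 HFD and 144 ND members. The cold-inducible RNA-binding protein Cirbp stood at 37.1 CPM in HFD and 66.3 CPM in ND members (-0.84, -1.23 to -0.45). Both were lower in other cells too: H1f0 at -1.09 in plasmacytoid comparators and -0.79 in all other kept cells, and Cirbp at -0.74 in plasmacytoid and -0.85 in classical monocyte comparators and -0.58 in all other kept cells. This ranking was chosen after the data were seen.

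The G2 and M phase list differed between the diets more within Clec9a or Xcr1 cells and within Flt3-only cells than over all members. The summed G2 and M phase list had a log2 ratio, HFD over ND, of -0.09 over all members, -0.75 (-0.83 to -0.68) in Clec9a or Xcr1 cells and 0.71 (0.63 to 0.79) in Flt3-only cells, against -0.05 in all other kept cells. In Clec9a or Xcr1 cells, 14 of 18 genes tested were lower, where 5.32% of 2292 genes were. In Flt3-only cells, 13 of 17 were higher, where 4.56% of 2788 genes were. Of the list's UMIs, 5 cells held 37.8% (HFD) and 24.7% (ND) in Clec9a or Xcr1 cells. In Flt3-only cells, 5 cells held 30.2% (HFD) and 50.8% (ND). Other markers moved in these sets too. Neutrophil markers stood at 4319 CPM in HFD and 6903 CPM in ND Clec9a or Xcr1 cells and at 8851 CPM in HFD and 785 CPM in ND Flt3-only cells. Progenitor markers stood at 541 CPM in HFD and 852 CPM in ND Clec9a or Xcr1 cells and at 1627 CPM in HFD and 2459 CPM in ND Flt3-only cells. Their part in the G2 and M phase ratios was not tested. The summed S phase list had a log2 ratio of 0.24 (0.18 to 0.30) over all members, -0.019 in Clec9a or Xcr1 cells, -0.10 in Flt3-only cells and 0.47 in cells with both receptors. It stood at 2139 CPM in HFD and 785 CPM in ND Cd209a cells (1.45, 1.29 to 1.61), with 8 of 9 genes tested higher where 12.8% of 2233 genes were, and the ratio was 0.98 without members past 1% other-lineage UMIs. Progenitor markers stood beside it at 1822 CPM in HFD and 248 CPM in ND Cd209a cells, and their part in the S phase ratio was not tested. Of the S phase UMIs of the Cd209a cells, 5 cells held 48.3% in the HFD library and 50.6% in the ND library.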

How the data were processed

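The deposited tables hold counts, one column per gene and a row per cell, each value a number of distinct RNA molecules (UMIs). Per the file headers, the authors obtained them with release 1.9.1 of the BD Rhapsody pipeline, and the file names give its RSEC error correction. The genome build is not given in the sources used here. The tables held 22263 (HFD) and 22229 (ND) genes and shared 20478 of 24014 symbols, and an absent symbol was taken as 0. The quality filter asked for 200 genes or more and for no more than 25% of UMIs from mitochondrial genes (15650 HFD, 14302 ND). Python 3.11.15 was used with pandas 2.3.3, numpy 2.4.6, scipy 1.17.1 and matplotlib 3.10.9. Scrublet, run in scanpy 1.11.5, marked 436 HFD and 406 ND cells, among them 8 and 10 members. These were kept, and removed in an alternative.

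UMIs were summed over the cells of a set and scaled to their total (CPM). A gene was called past 1.5-fold at 100 or more UMIs, and in a ratio 0 UMIs were set to 3 in that library. There was no test and no p-value. Intervals cover counting error, not animals, preparations or the clustering of UMIs within cells, and UMIs of 1 cell are not independent. The computation of ratios was checked on simulated counts. Comparators were cells with 2 or more Siglech UMIs (plasmacytoid), with Ly6c2 and Ccr2 but under 5 class II UMIs (classical monocyte), or with 5 or more Cd79a and Cd79b UMIs (B). Levels are compared between cells, never between genes.

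The rule, gene lists and alternatives were chosen with earlier results of these data known. Genes named were list members with the largest ratios, the 12 highest and 12 lowest of the genes ranked over all members, and the 8 highest and 8 lowest between sets. The 20 with the highest ratio to other cells were named too. Numbered gene models and the genes of haemoglobin, ribosomes, mitochondria and antigen receptors were left out. The 12 highest, the 12 lowest and the spread ranking also left out genes far higher elsewhere. These had a CPM in members under 10% of that of a comparator group or of all other kept cells, in both libraries. Others, including Batf3, Irf4, Tcf4, Kit, Ccr7, Fscn1 and the spread ranking, were named after their values were seen. A few results are not reported here. Promoter windows are RefSeq sequence of GRCm38.p6, and no coordinates were taken from the deposited tables.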

Additional observations from a re-analysis of the deposited data

Results flagged for a closer look

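In the Clec9a or Xcr1 cells and the Cd209a cells, genes of neutrophils and their precursors had opposite directions between the diets. The log2 ratio, HFD over ND, of the protease gene Elane was -0.67 in Clec9a or Xcr1 cells and 5.52 in Cd209a cells. Of the 659 Elane UMIs in HFD members, 1 cell held 47.0%. The Cd209a cells held 462 of the 659 and the other sets 44, 143 and 10, so that cell was a Cd209a cell. The ND Cd209a cells held 7 Elane UMIs. The log2 ratio of Mpo, the myeloperoxidase gene, was -1.14 in Clec9a or Xcr1 cells and 2.95 in Cd209a cells. The median of the neutrophil marker list was -0.74 in Clec9a or Xcr1 cells and 2.15 in Cd209a cells. The difference between the sets was not tested, since each set has 1 library per diet. In 4 of 90 HFD and 4 of 82 ND Cd209a cells, and in 2 of 65 HFD and 4 of 60 ND Clec9a or Xcr1 cells, markers of other lineages held over 1% of UMIs.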

How the results depend on the processing

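No paired analysis was possible because each diet has 1 library, and for the same reason no replicate could be left out. The share of members, HFD over ND, lay between 0.91 and 0.99 under every alternative run. The shares themselves were 1.19% (HFD) and 1.30% (ND) with cells thinned to 2000 UMIs, 1.35% and 1.48% at 10 class II UMIs, and 1.25% and 1.29% without entry by Flt3. Clec9a or Xcr1 cells made up 16.1% (HFD) and 18.1% (ND) of members at 2 UMIs of the entry gene and 16.6% and 11.5% with members thinned, and Cd209a cells 39.4% of ND members at 2 UMIs.

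Genes higher and lower in HFD members, 156 and 95, became 546 and 330 with the Clec9a or Xcr1 and Cd209a cells weighted alike, 702 and 564 at a minimum of 20 UMIs, 42 and 17 at 300 UMIs, 48 and 18 with members thinned, and 39 and 18 past 2-fold. The higher ones numbered 96 without members past 1% other-lineage UMIs, an alternative chosen after seeing the data. Thinning and higher minima leave fewer UMIs or genes. The weighting left out the Flt3-only cells and those with both receptors, so it also rests on fewer UMIs. Genes were still chosen by their UMIs over all members. The part of these in the counts was not tested.

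Of the ratios of named genes under alternatives, 1037 moved by less than their interval, 170 moved further and 20 changed sign. Changes of sign were counted only for genes past 1.5-fold over all members, and those of other genes are among the 1037 and the 170. Without Scrublet doublets the log2 ratio was 0.22 for Cpa3, 0.27 for Egr1, 0.66 for Mcpt8, 0.97 for Ms4a2 and 0.48 for Prss34. Without members past 1% other-lineage UMIs it was 0.56 for Cpa3, 0.49 for Mcpt8, 0.45 for Prss34, -0.037 for Gng11, -0.76 for Pf4 and -1.76 for Ppbp. At 10 class II UMIs it was -1.91 for Pf4, -1.69 for Ppbp and -0.11 for Thbs1, and without the top cell of each gene -1.82 for Ppbp. With the Clec9a or Xcr1 and Cd209a cells weighted alike and the other sets left out, it was -0.043 for Ifi27l2a, -0.44 for Rsad2 and 1.99 for Il12a. The ratio of Il12a was 2.36 without entry by Flt3. Thinned, Igtp was at -0.69. The median of the cholesterol list lay between -0.71 and -0.36 in 12 alternatives and was past 1.5-fold in 10 of them. The 12 include the 2-fold cutoff, which changes calls only and could not move the median. Thinning of members is not among them, since too few list genes then reached the minimum.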

Other observations

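Of 10 pattern receptor genes tested, Tlr11 and Tlr12, both sensors of profilin, were past 1.5-fold higher in HFD members and Mrc1 lower. Over all 6314 genes tested, 2.47% were higher and 1.5% lower. Tlr12 stood at 33.9 CPM in HFD and 22.1 CPM in ND members, a log2 ratio of 0.62 (0.09 to 1.17), which was 0.088 with members thinned to 2000 UMIs. Of 9 cytokine and chemokine genes tested, Cxcl9 was higher, and Il12a, Ccl3 and Ccl4 lower, beside the same shares over all genes. Ccl3 stood at 29.9 CPM in HFD and 94.5 CPM in ND members and Ccl4 at 19.2 CPM in HFD and 68.6 CPM in ND members, with 36% of the HFD UMIs of Ccl3 and 25% of those of Ccl4 in 1 cell. Il12a stood at 29.9 CPM in HFD and 45.6 CPM in ND members, and its direction turned with the Clec9a or Xcr1 and Cd209a cells weighted alike (1.99) and without entry by Flt3 (2.36).

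Of 14 genes of fatty acid oxidation and lipid storage tested, the acyl-CoA synthetase Acsl1 was past the fold (49.9 CPM in HFD, 30.6 CPM in ND; 0.71, 0.26 to 1.16), and 10 of the 14 ratios were above 0, as were 3376 of 6314 over all genes tested. Of those 6314, 2.47% were past the fold higher and 1.5% lower. Cpt1a, which carries fatty acids into mitochondria, stood at 254 CPM in HFD and 181 CPM in ND members (0.49, 0.31 to 0.68), and the lipid droplet protein Plin2 at 57.1 CPM in HFD and 39.5 CPM in ND members (0.53, 0.13 to 0.94). Of 7 genes of fatty acid synthesis tested, the desaturase Scd2 was lower, at 87.5 CPM in HFD and 134 CPM in ND members (-0.62, -0.88 to -0.36). Among immediate early genes 1 of 17 tested was past the fold, Egr1, at 37.9 CPM in HFD and 72.9 CPM in ND members (-0.94, -1.33 to -0.56), and its direction turned when Scrublet doublets were removed, to 0.27.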
